A study of Mus musculus with 4 samples.

Results

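The genes described here are 10 regulators of protein breakdown in heart muscle, of 43346 genes in the deposited table. They were chosen by name and function, with earlier results of these data known. Trim63, Trim54 and Trim55 encode the muscle RING-finger ubiquitin ligases MuRF1, MuRF3 and MuRF2. Fbxo32 encodes the F-box ligase subunit atrogin-1, and Fbxo40 encodes another muscle F-box protein. Mdm2 encodes the ligase of p53. Sqstm1 (p62), Nbr1 and Bnip3 encode autophagy receptors, and Bag3 encodes a co-chaperone that hands damaged muscle proteins to autophagy. All 10 were found in the table and all 10 passed the filter on low counts in gene reads, 7 passed it in exon reads and 10 in intron reads.

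Hearts of C57BL/6 mice at 6 weeks of age were compared, 2 from wild-type (WT) animals and 2 from animals whose genotype is given as PRMT1-cKO, which the series describes as a deletion of Prmt1 in cardiomyocytes. PRMT1 is an enzyme that methylates arginine residues of proteins. Total RNA of the heart was depleted of ribosomal RNA and sequenced on the SOLiD platform, so cells other than cardiomyocytes, which the deletion is not meant to reach, are part of every library. The sources used here name neither the Cre driver nor the deleted part of Prmt1, and the labels give nothing on litter or sex.

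Ubiquitin ligases choose which proteins are marked with ubiquitin. Proteins marked in this way go to the proteasome or, bound by receptors such as p62 and NBR1, are enclosed in autophagosomes and digested in lysosomes. In muscle, MuRF1 and atrogin-1 are the best known ligases of wasting, MuRF1 acting on thick-filament and other sarcomeric proteins. Their genes are known targets of the FOXO transcription factors, which the insulin and IGF1 pathway holds back. SQSTM1 is a known target of NRF2, and Bnip3 of FOXO3 and of the hypoxia-inducible factor HIF1.

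Promoter windows of 250 bases, ending just before a RefSeq transcript start on the GRCm38.p6 build, matched 8 of the 10 genes. Letters of 4 factors were searched on both strands. These were the FOXO motif GTAAACA, the antioxidant response element TGACNNNGC of NRF2, the heat shock element GAANNTTC and the hypoxia response core ACGTG. The windows of the genes with the clearest differences between genotypes are shown because they let those factors' letters be read beside the values. Capitals mark a motif, and positions are counted back from the transcript start.
Trim63, chr4:134314870-134315119, plus strand: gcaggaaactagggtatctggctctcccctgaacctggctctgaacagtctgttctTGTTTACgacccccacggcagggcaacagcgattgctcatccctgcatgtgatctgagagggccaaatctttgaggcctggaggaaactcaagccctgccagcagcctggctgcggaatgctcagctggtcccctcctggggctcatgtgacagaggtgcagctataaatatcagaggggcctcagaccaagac
Bnip3, chr7:138909507-138909756, minus strand: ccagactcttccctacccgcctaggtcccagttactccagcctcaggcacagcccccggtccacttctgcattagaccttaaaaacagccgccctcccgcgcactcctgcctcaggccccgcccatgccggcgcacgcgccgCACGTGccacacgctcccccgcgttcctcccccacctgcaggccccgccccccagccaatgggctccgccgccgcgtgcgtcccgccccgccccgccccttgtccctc
Fbxo40, chr16:36990468-36990717, minus strand: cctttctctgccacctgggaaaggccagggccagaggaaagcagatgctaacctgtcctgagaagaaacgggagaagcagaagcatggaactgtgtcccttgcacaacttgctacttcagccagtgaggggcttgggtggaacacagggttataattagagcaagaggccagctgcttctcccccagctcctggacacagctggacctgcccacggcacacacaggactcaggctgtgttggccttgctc
Sqstm1, chr11:50210821-50211070, minus strand: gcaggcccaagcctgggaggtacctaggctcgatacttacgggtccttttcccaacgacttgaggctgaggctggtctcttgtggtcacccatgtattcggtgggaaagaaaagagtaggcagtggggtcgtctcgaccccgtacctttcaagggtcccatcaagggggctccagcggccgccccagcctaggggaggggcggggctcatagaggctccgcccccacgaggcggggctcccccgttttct

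The Trim63 window held the FOXO letters in reverse, 194 bases before the start, as did 3.17% of 32851 RefSeq windows of the same length in either direction. The Bnip3 window held the hypoxia letters on each strand, 108 and 107 bases before the start, as overlapping reads of CACGTG. At least 1 copy of that core was present in 16.6% of all windows. The Fbxo40 and Sqstm1 windows shown held none of the 4 motifs. Elsewhere, the Mdm2 window held the FOXO letters 153 bases before the start, a further Nbr1 window held the hypoxia core 139 bases before the start, and a further Fbxo40 window held the antioxidant letters 105 bases before the start. The antioxidant and heat shock letters were present in 10.2% and 6.69% of all windows. The Trim54 and Bag3 windows had no match to any of the 4.

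The WT libraries held 25509854 and 21701967 gene reads, replicate 1 first, and the PRMT1-cKO libraries held 18291730 and 18674587. A gene read is a read that the authors placed on a gene, and it equals the exon reads plus the intron reads of that gene in every case. Exon reads, nearly all of which cross an exon junction, made up between 2.45 and 2.51% of gene reads in WT and between 3.60 and 4.18% in PRMT1-cKO. The mitochondrial ribosomal RNA mt-Rnr2 took 64.9 and 65.8% of gene reads in the WT hearts against 52.8 and 51.2%, and the part of this difference in the results was not tested. This share far exceeds that of exon reads, so most mt-Rnr2 reads are counted as intron reads. Genes with 1 annotated exon had 0 exon reads, so all their reads are counted there too. Intron reads are thus all gene reads not counted as exon reads, and not RNA of introns alone. Counts were scaled with TMM, are given as CPM, that is, relative to a common library size, and were tested with edgeR over all genes at an adjusted p under 0.05. The p-values rest on the spread between the 2 hearts of each group, which edgeR draws, gene by gene, toward the spread of other genes. They are therefore not a measure of 1 gene's own spread alone. Nothing in the labels says more about how the hearts were chosen. Prmt1 itself was covered by 33 and 18 gene reads in the WT hearts, by 33 and 44 in the PRMT1-cKO hearts and by 0 exon reads in all 4 libraries, so these counts do not check the genotype labels.

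Of the 10 genes, 2 were higher and 5 were lower in PRMT1-cKO in gene reads, and 3 did not pass the test. Fbxo40 and Sqstm1 were higher, and Trim63, Trim54, Fbxo32, Bnip3 and Bag3 were lower. Across the 13869 genes tested, 22.7% passed, 11.5% as higher and 11.2% as lower. The median log2 change was -0.55 over the 10 genes and 0.01 over all genes tested. The 10 genes did not move in 1 direction, and the muscle F-box proteins Fbxo32 and Fbxo40 went opposite ways. Fewer of the 10 passed when either WT heart was left out, and fewer of all genes tested did as well. The 4 that passed in all 11 alternatives tried were Trim63, Fbxo40, Sqstm1 and Bnip3.

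**Figure D1:**
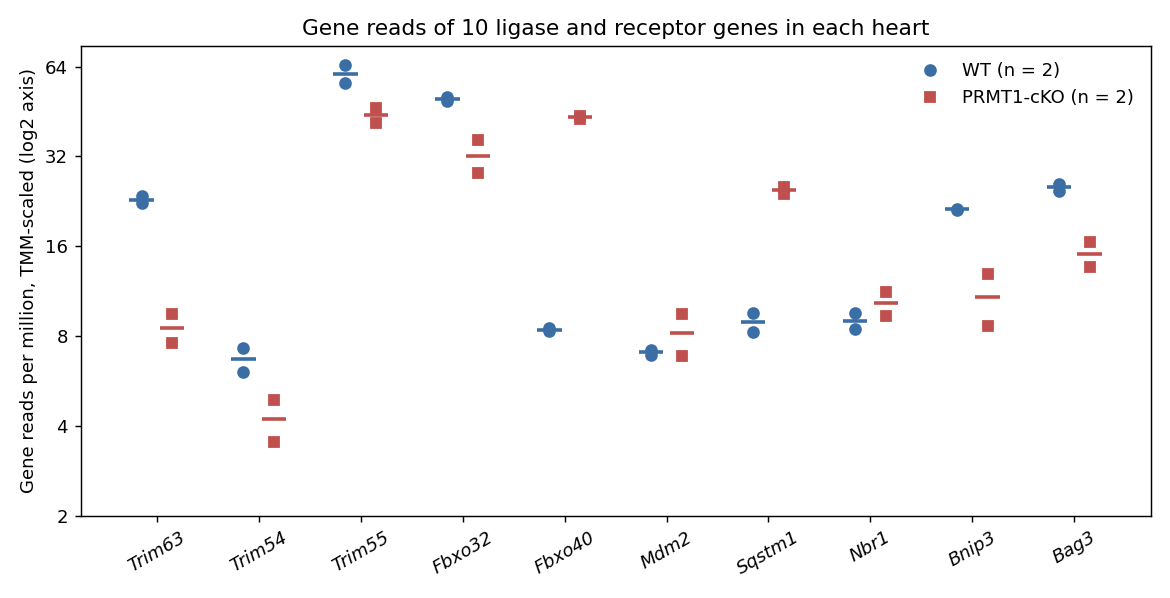
Gene reads of each gene in each heart as TMM-scaled CPM on a log2 axis, with WT hearts as circles, PRMT1-cKO hearts as squares and a bar at the mean of the 2 hearts. Fbxo40 and Sqstm1 lie higher in both PRMT1-cKO hearts, Trim63 and Bnip3 lie lower, and Mdm2 and Nbr1 overlap between the groups.

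Trim63, on chromosome 4 (GRCm38, 134315120 to 134329629, plus strand), fell most. MuRF1, its product, ubiquitinates myosin heavy chains and troponin I. It had 23.6 and 22.3 CPM in WT and 7.56 and 9.49 CPM in PRMT1-cKO. Both PRMT1-cKO hearts were far below both WT hearts, with no overlap. The log2 change was -1.43 ± 0.20 (SE), which is 2.69-fold lower, with a 95% interval of -1.85 to -1.0 and an edgeR adjusted p = 3.23e-05. All of these were intron reads, 533 and 381 in the WT hearts against 154 and 227, and the deposited exon reads and RPKM were 0 in all 4 libraries. The exon counts therefore carry no information on spliced Trim63 RNA.

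Trim63 shared that zero with many other genes of the table. Among 10352 multi-exon genes with at least 100 gene reads over the 4 libraries, 1654, or 15.98%, had no exon read. The median share of exon reads was 28.9% in the 2867 genes with 1 annotated transcript, 4.88% in the 1300 genes with 2, and 0.769% in the 1497 genes with 9 or more. Trim63 has 4 annotated transcripts in the deposited table and Mdm2, also at 0 exon reads in every library, has 9. Nbr1 has 20 and Bnip3 has 5, and their exon reads made up 4.46 and 0.356% of gene reads in WT. Sqstm1 was set apart from its neighbours in this respect, since it has 7 transcripts and 33.8% exon reads in WT. Whether the counting rule left out reads shared by several transcripts was not tested.

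**Figure D2:**
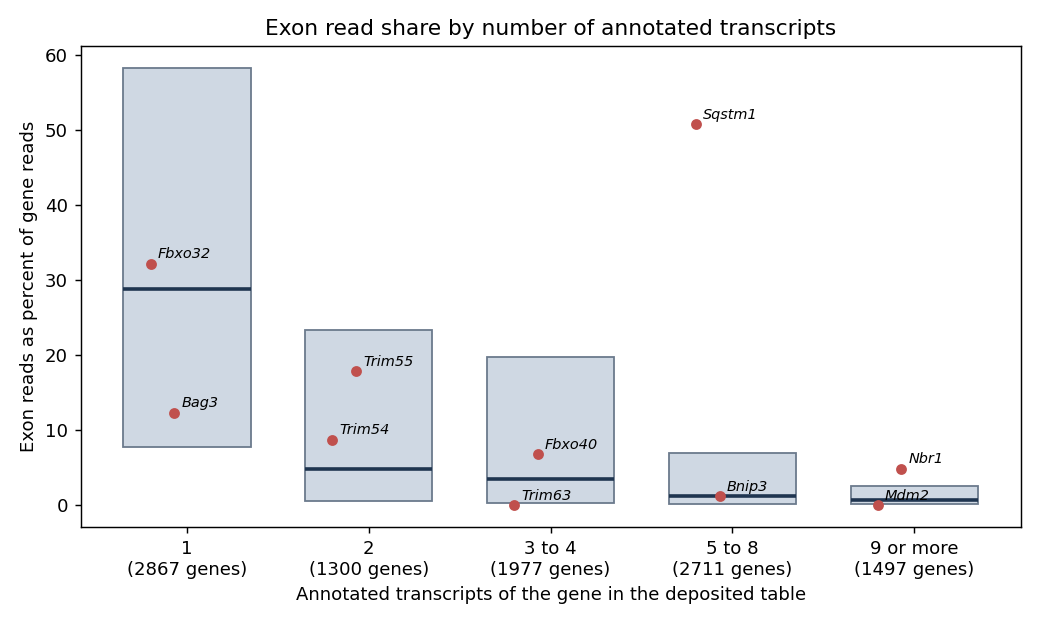
Exon reads as a percent of gene reads over the 4 libraries, by the number of transcripts the deposited table lists for a gene; the box spans the middle quartiles of all multi-exon genes with at least 100 gene reads, the line is their median, and points are the 10 genes. The median falls from 28.9% with 1 transcript to 0.769% with 9 or more, Trim63 and Mdm2 sit at 0, and Sqstm1 lies far above the box of its class.

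The other MuRF genes differed less. MuRF3, from Trim54 on chromosome 5 (31116712 to 31137630, plus strand), binds microtubules and the Z-disc region. Trim54 had 7.31 and 6.08 CPM in WT and 3.53 and 4.89 CPM in PRMT1-cKO, with no overlap. Its log2 change of -0.67 ± 0.23 passed the test at an edgeR adjusted p = 0.0414. The call did not hold in the fit that left out WT replicate 1 (edgeR adjusted p = 0.364) and in that without WT replicate 2 (0.0716). It was also lost in the fit that left out the first PRMT1-cKO heart (edgeR adjusted p = 0.156) and with DESeq2 (adjusted p = 0.160). The antisense gene Gm15469 overlaps 1592 bases of Trim54 and has no counts here. Intron reads of Trim54 passed as lower (log2 -0.65 ± 0.22, edgeR adjusted p = 0.0336). The intron call did not survive the loss of WT replicate 1 (edgeR adjusted p = 0.416) or of the first PRMT1-cKO heart (0.112), nor DESeq2 (0.204). Exon reads of Trim54 were few, 10 and 14 in the WT hearts against 4 and 12, and did not place its change (log2 -0.82 ± 0.58, edgeR adjusted p = 0.295). Leaving out PRMT1-cKO replicate 2 gave -1.91 in exon reads, which passed (edgeR adjusted p = 0.0452).

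MuRF2, from Trim55 on chromosome 3 (19644474 to 19692421, plus strand), is tied to titin at the M-band, where titin's kinase domain binds NBR1. Trim55 was the most read of the MuRF genes, with 64.9 and 56.3 CPM in WT and 41.4 and 46.4 CPM in PRMT1-cKO. The hearts did not overlap, but the log2 change of -0.47 ± 0.22 did not pass the test (edgeR adjusted p = 0.136). Its exon and intron reads gave different estimates, but the exon change did not pass against the intron change (edgeR diffSpliceDGE adjusted p = 0.205). Exon reads, 186 and 154 in the WT hearts against 223 and 220, gave a log2 change of 0.13 ± 0.16 (edgeR adjusted p = 0.560). Intron reads, 1279 and 809 in the WT hearts against 621 and 889, gave -0.62 ± 0.21 (edgeR adjusted p = 0.0331). The intron call did not hold when WT replicate 1 was left out (edgeR adjusted p = 0.374), nor without WT replicate 2 (0.116) or with no read filter (0.0566).

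Fbxo32, on chromosome 15 (58175879 to 58214892, minus strand), encodes atrogin-1, the substrate-binding subunit of an SCF ligase. It had 49.2 and 50.6 CPM in WT and 28.1 and 36.3 CPM in PRMT1-cKO, without overlap. The gene fell in gene reads (log2 -0.63 ± 0.21, edgeR adjusted p = 0.0385), in exon reads (-0.49 ± 0.15, 0.0207) and in intron reads (-0.74 ± 0.21, 0.00930). With 1 annotated transcript and 318 and 279 exon reads in WT against 241 and 263 in PRMT1-cKO, it is the ligase whose spliced RNA these counts follow best. The gene-read call did not hold when WT replicate 1 was left out (edgeR adjusted p = 0.241), nor without WT replicate 2 (0.260) or the first of the PRMT1-cKO hearts (0.0989). Without the same libraries the exon call was also lost, at edgeR adjusted p = 0.116, 0.119 and 0.0841, as it was with DESeq2 (adjusted p = 0.0945). The intron call was lost when either WT heart was left out (edgeR adjusted p = 0.0856 for replicate 1 and 0.0732 for replicate 2). The antisense gene Gm15943 overlaps 418 bases at its start and fell as well, from 329 and 240 gene reads to 75 and 93. No source says that counting used strand, so reads in that overlap cannot be told apart.

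Fbxo40 moved furthest of the 10. It lies on chromosome 16 (36963460 to 36990467, minus strand) and encodes a muscle-restricted F-box protein known to direct IRS1, the insulin and IGF1 receptor substrate, to breakdown. It had 8.50 and 8.30 CPM in WT and 42.8 and 43.7 CPM in PRMT1-cKO. The hearts within each genotype differed little, and both PRMT1-cKO hearts lay far above both WT hearts. The log2 change was 2.36 ± 0.21, which is 5.14-fold higher, with an edgeR adjusted p = 1.13e-07. Exon reads rose from 24 and 17 to 56 and 57 (log2 1.21 ± 0.31, edgeR adjusted p = 0.00608). Intron reads rose from 168 and 125 to 817 and 988 (log2 2.47 ± 0.21, edgeR adjusted p = 4.40e-10). The share of exon reads was 12.3% in WT and 5.89% in PRMT1-cKO, reads summed over the hearts of a group. The exon change did not pass against the intron change (edgeR diffSpliceDGE adjusted p = 0.195). No other annotated gene overlaps Fbxo40 in GENCODE M21.

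Mdm2, on chromosome 10 (117688888 to 117710758, minus strand), did not pass the test. It had 6.91 and 7.19 CPM in WT and 6.87 and 9.49 CPM in PRMT1-cKO, and the groups overlapped. The log2 change of 0.22 ± 0.21 had a 95% interval of -0.23 to 0.67 (edgeR adjusted p = 0.528). Leaving out PRMT1-cKO replicate 2 turned its sign, to -0.041.

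Sqstm1, on chromosome 11 (50199366 to 50210827, minus strand), was the gene with the clearest rise in spliced reads. p62 binds ubiquitin at its C-terminus and the autophagosome protein LC3, is itself degraded by autophagy, and also binds KEAP1, the inhibitor of NRF2. It had 8.24 and 9.53 CPM of gene reads in WT and 25.3 and 23.9 CPM in PRMT1-cKO, which is 1.47 ± 0.20 in log2 or 2.77-fold (edgeR adjusted p = 1.99e-05). Its exon reads were 56 and 62 in the WT hearts and 321 and 290 in the PRMT1-cKO hearts, which is 90.5 and 115 CPM of exon reads against 434 and 453. Every PRMT1-cKO value was above every WT value on both scales. In exon reads it rose 4.32-fold, or 2.11 ± 0.18 in log2 (edgeR adjusted p = 2.37e-07). Its intron reads rose, at 0.87 ± 0.20 (log2; edgeR adjusted p = 0.00147), and leaving out WT replicate 1 ended that call (0.0517). Exon reads made up 33.8% of its reads in WT and 56.2% in PRMT1-cKO. Over all genes this share was also higher in PRMT1-cKO, at 3.60 to 4.18% against 2.45 to 2.51% in WT. The exon change of Sqstm1 did not pass against its intron change (edgeR diffSpliceDGE adjusted p = 0.205). Its last 750 bases are shared with Mrnip on the other strand, whose gene reads were 30 and 26 in the WT hearts against 70 and 82.

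Nbr1, also on chromosome 11 (101552149 to 101581951, plus strand), encodes the receptor most like p62, and it did not pass the test. It had 9.52 and 8.42 CPM in WT and 9.37 and 11.3 CPM in PRMT1-cKO, which overlap. The log2 change of 0.20 ± 0.20 had a 95% interval of -0.22 to 0.62 (edgeR adjusted p = 0.544). The exon reads of Nbr1, 5 and 11 in the WT hearts against 16 and 8, could not place its change on that scale (log2 0.30 ± 0.56).

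Bnip3 fell. It lies on chromosome 7 (138890836 to 138909519, minus strand), and its product sits in the outer mitochondrial membrane and recruits the autophagy machinery to mitochondria. It had 21.2 and 21.3 CPM in WT and 8.64 and 12.9 CPM in PRMT1-cKO, without overlap. The log2 change was -0.97 ± 0.21, or 1.97-fold lower (edgeR adjusted p = 0.00201). Its exon reads were 0 and 3 in the WT hearts against 9 and 4, under the filter. The fall was therefore one of reads counted as intron reads (log2 -1.01 ± 0.20, edgeR adjusted p = 3.58e-04), which need not come from introns. An antisense gene, Gm45507, overlaps 3712 bases of Bnip3 and a pseudogene, Gm18258, overlaps 852 bases, both on the other strand, and neither has counts here.

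Bag3, on chromosome 7 (128523583 to 128546977, plus strand), encodes a partner of HSC70 and of small heat shock proteins at the Z-disc, and its loss in mice gives a myopathy. It had 25.9 and 24.6 CPM in WT and 13.6 and 16.5 CPM in PRMT1-cKO. The groups did not overlap, and the log2 change was -0.74 ± 0.20 (edgeR adjusted p = 0.00895). The call did not hold when either WT heart was left out (edgeR adjusted p = 0.135 without WT replicate 1 and 0.0690 without WT replicate 2). A fall passed in the reads counted as intron reads, 535 and 374 in the WT hearts against 222 and 339 (log2 -0.86 ± 0.19, edgeR adjusted p = 0.00133). Exon reads of Bag3, which has 1 annotated transcript, were 80.8 and 85.7 CPM in WT and 75.7 and 85.9 CPM in PRMT1-cKO, with overlap. Their log2 change was -0.045 ± 0.25 (edgeR adjusted p = 0.913). The exon change of Bag3 did not pass against its intron change (edgeR diffSpliceDGE adjusted p = 0.322).

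Set side by side, 3 of the 7 genes with enough exon reads passed the test in exon reads, Fbxo40 and Sqstm1 as higher and Fbxo32 as lower. Among the 4756 genes tested there, 36.2% passed, 17.6% as higher and 18.7% as lower. The median log2 change was 0.13 over the 7 genes and 0.00 over all. In intron reads 2 genes were higher and 6 lower, Trim55 being the one not called in gene reads, against a background of 21.8% of 13217 genes, 10.8% as higher and 11% as lower. Leaving out WT replicate 1 lowered the number that passed in intron reads, both among the 10 and among all genes tested.

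**Figure D3:**
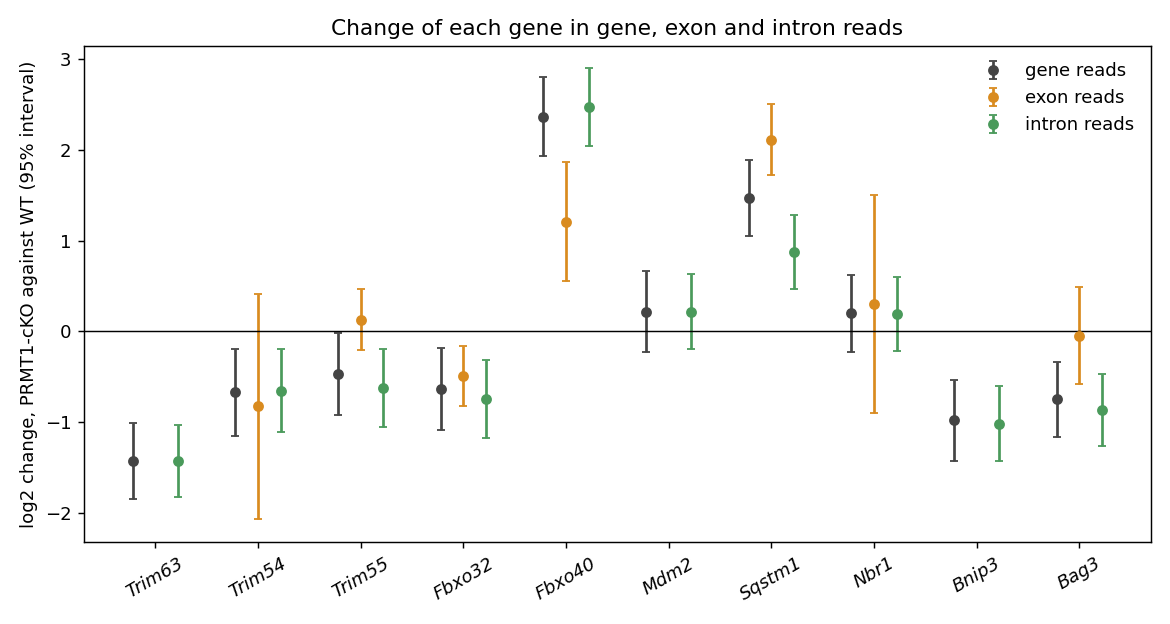
Log2 change of each gene in PRMT1-cKO against WT in gene, exon and intron reads, with 95% intervals from edgeR; a missing exon point marks a gene with too few exon reads to test. Exon and intron points lie apart for Trim55, Fbxo40, Sqstm1 and Bag3, and together for Fbxo32.

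The exon change was set against the intron change within each gene, with diffSpliceDGE and Simes p-values, for the 7 genes that had both. Since intron reads are all gene reads not counted as exon reads, this does not set spliced against unspliced RNA. The median difference over 4196 genes was 0.18 on the log2 scale. The exon change minus the intron change was 0.84 in Trim55, 1.32 in Sqstm1, 0.90 in Bag3 and -1.16 in Fbxo40, and between -0.12 and 0.31 in Trim54, Nbr1 and Fbxo32. None of the 7 passed after adjustment, where 3.88% of all genes did, 1.95% with the exon change above and 1.93% with it below the intron change, and 4 of the 7 had an unadjusted p under 0.05. The edgeR adjusted p-values of these 4 were 0.205, 0.205, 0.322 and 0.195, in the order given. With the second PRMT1-cKO heart left out, Trim55 (1.12, edgeR adjusted p = 0.00724) and Sqstm1 (1.67, 0.0238) passed. Replicates of a genotype also differed in exon share, since exon reads were 62.2 and 50.8% of Sqstm1 reads in the PRMT1-cKO hearts.

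Per length, the deposited RPKM rests on exon reads, and it orders genes within a library only as far as their exon reads were counted alike. In both WT hearts Trim55 had the highest RPKM of the 10, 2.74 and 2.67, followed by Fbxo32 with 1.80 and 1.85. Sqstm1 and Bag3 came next, at 0.654 and 0.851 for Sqstm1 and 0.756 and 0.818 for Bag3, and these neighbours changed places between the hearts. In both PRMT1-cKO hearts Sqstm1 led with 5.23 and 4.63, ahead of Trim55 with 4.58 and 4.43. The lower Sqstm1 value and the higher Trim55 value lay close together. Fbxo40 was between 0.142 and 0.171 in WT and at 0.555 and 0.553 in PRMT1-cKO. RPKM is scaled to all gene reads of a library, mt-Rnr2 among them, so its level does not compare between the genotypes. Fbxo32 had an RPKM of 1.90 and 2.03 in PRMT1-cKO, above WT, although its TMM-scaled exon reads were lower (log2 -0.49). Trim55 was also above WT in RPKM, while its exon change of 0.13 did not pass. Trim63 and Mdm2 were listed at 0.

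Markers of the cell types of the heart moved with the genotype as well. Of 6 cardiomyocyte markers 4 fell in gene reads, with fewer calls when either WT heart was left out. The summed level of the 6 was 4427 to 4511 CPM in WT and 2245 to 2649 CPM in PRMT1-cKO. In exon reads 5 of the 6 fell. Tnnt2, lower in gene reads (log2 -0.98), did not pass in exon reads (log2 0.37, edgeR adjusted p = 0.100). All 7 fibroblast markers rose, from a sum of 119 to 165 CPM to a sum of 359 to 684 CPM. All 6 leukocyte markers rose, from 22.1 to 27.5 CPM to 53.6 to 74.1 CPM. The endothelial list had 1 higher and 2 lower of 6. The list of mural (vessel wall) markers had 0 of 5 called in gene reads and 3 of 5 lower in exon reads. Some fibroblast and leukocyte calls did not hold in fits that left out a WT heart. In whole-heart RNA, fewer cardiomyocytes and less of an RNA per cardiomyocyte cannot be told apart, and the part of such shifts in the falls of Trim63, Trim54, Fbxo32, Bnip3 and Bag3 was not tested. Whether cells other than cardiomyocytes had a part in the rises of Fbxo40 and Sqstm1 was not tested either. Myh6, the cardiac myosin, had 25638 and 22680 gene reads in WT. Of 8 skeletal muscle markers, Ckm, which the heart also expresses, was the one that passed the filter, and it fell from 4607 and 4214 gene reads to 568 and 379 (log2 -3.37, edgeR adjusted p = 1.25e-07). The other 7 had at most 11 gene reads in a library, and Myod1 had 0 in all 4. A part of skeletal muscle RNA in these results was not tested.

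Genes that act with the 10 were read in 10 lists, first in gene reads, to which the counts refer unless exon reads are named. Over all genes tested in gene reads 22.7% passed, 11.5% as higher and 11.2% as lower, and no list was tested as a set. Of 18 sarcomere proteins handled by or bound to MuRF proteins, 2 were higher and 9 lower, with a median of -0.58. Tnni3, cardiac troponin I and a MuRF1 substrate, had 7.80 and 9.24 CPM in WT and 1.82 and 1.76 CPM in PRMT1-cKO (log2 -2.25 ± 0.24, edgeR adjusted p = 1.13e-06). Titin, Ttn, fell by 2.02 on the log2 scale. Desmin, Des, went the other way, from 68.2 and 85.3 CPM to 411 and 315 CPM (log2 2.24 ± 0.28, edgeR adjusted p = 7.49e-06). Cardiomyocyte markers are part of this list. Myh7, the slow myosin heavy chain, named after its values were seen, went opposite ways on the 2 scales. Its gene reads fell (log2 -1.63 ± 0.23, edgeR adjusted p = 3.29e-05), while its exon reads rose from 1 and 4 to 185 and 136 (5.68 ± 0.40, 2.17e-08). Leaving out WT replicate 1 or WT replicate 2 gave 1 higher and 6 lower, and leaving out PRMT1-cKO replicate 1 gave 1 higher and 10 lower.

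Of 18 other muscle ubiquitin ligases, 3 were higher and 3 lower, with a median of 0.09. The largest changes were falls, with log2 changes of -1.86 in Asb15, an ASB ligase subunit of muscle, -1.505 in Fbxo31, an F-box protein, and -1.47 in Trim72, the membrane repair protein MG53. Asb15 had at most 1 exon read in a library. In exon reads the largest change was that of Asb2, named after its values were seen, from 98 and 84 reads to 22 and 12 (log2 -2.67 ± 0.29, edgeR adjusted p = 2.56e-06). Gene reads of Asb2 did not pass (log2 -0.51 ± 0.22, edgeR adjusted p = 0.104). None of the 3 higher calls was made without WT replicate 1 or without PRMT1-cKO replicate 2, and 1 was made without WT replicate 2. Of 17 FOXO factors and upstream regulators, 2 were lower and none was higher in edgeR in gene reads, with a median of -0.04, and at an unadjusted p under 0.05 there were 4 lower and 1 higher. DESeq2 made 2 lower and 0 higher calls. The glucocorticoid receptor gene Nr3c1, known to act with FOXO on Trim63, fell from 66.4 and 65.3 CPM to 34.8 and 40.5 CPM (log2 -0.80 ± 0.21, edgeR adjusted p = 0.00947). Akt2, a kinase that inhibits FOXO, fell by 0.61. Nr3c1 and Akt2 had at most 5 exon reads in a library. Neither call held when WT replicate 1 or WT replicate 2 was left out, and the Akt2 call was also lost when PRMT1-cKO replicate 2 was, and with DESeq2. Of 21 ubiquitin, E2 enzyme and SCF core genes, edgeR and DESeq2 called none in either direction in gene reads, and 2 were higher and 2 lower at an unadjusted p under 0.05.

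Around the receptors, 6 of 33 genes of the autophagy core were higher and none was lower in edgeR in gene reads, with a median of 0.20. At an unadjusted p under 0.05 these counts were 9 and 1, and DESeq2 called 4 and 0. The lysosomal protease Ctsl had 18.03 and 19.8 CPM in WT and 52.6 and 57.5 CPM in PRMT1-cKO (log2 1.54 ± 0.21, edgeR adjusted p = 2.08e-05). Gabarapl1, an LC3 relative that p62 and NBR1 can bind, rose by 1.25 ± 0.21 and the protease Ctsb by 1.06 ± 0.26 on the log2 scale. The Ctsb call was lost when WT replicate 1 (edgeR adjusted p = 0.116) or WT replicate 2 (0.0848) was left out. Cathepsins are also abundant in leukocytes, whose markers rose. When WT replicate 1 or WT replicate 2 was left out, 2 genes of this list were higher. Of 16 other selective autophagy and mitophagy receptors and their partners, 1 was higher and 3 were lower, with a median of -0.16. Park2, the mitophagy ligase parkin, had 211 and 176 CPM in WT and 61.1 and 68.0 CPM in PRMT1-cKO (log2 -1.58 ± 0.25, edgeR adjusted p = 8.81e-05). It had at most 5 exon reads in a library. Optn, optineurin, had a log2 change of -1.21 and Rtn3, a receptor of the endoplasmic reticulum, one of -0.63, each with at most 8 exon reads in a library. The Rtn3 call held in neither fit that left out a WT heart, nor in the fit that left out PRMT1-cKO replicate 1, nor with DESeq2.

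**Figure D4:**
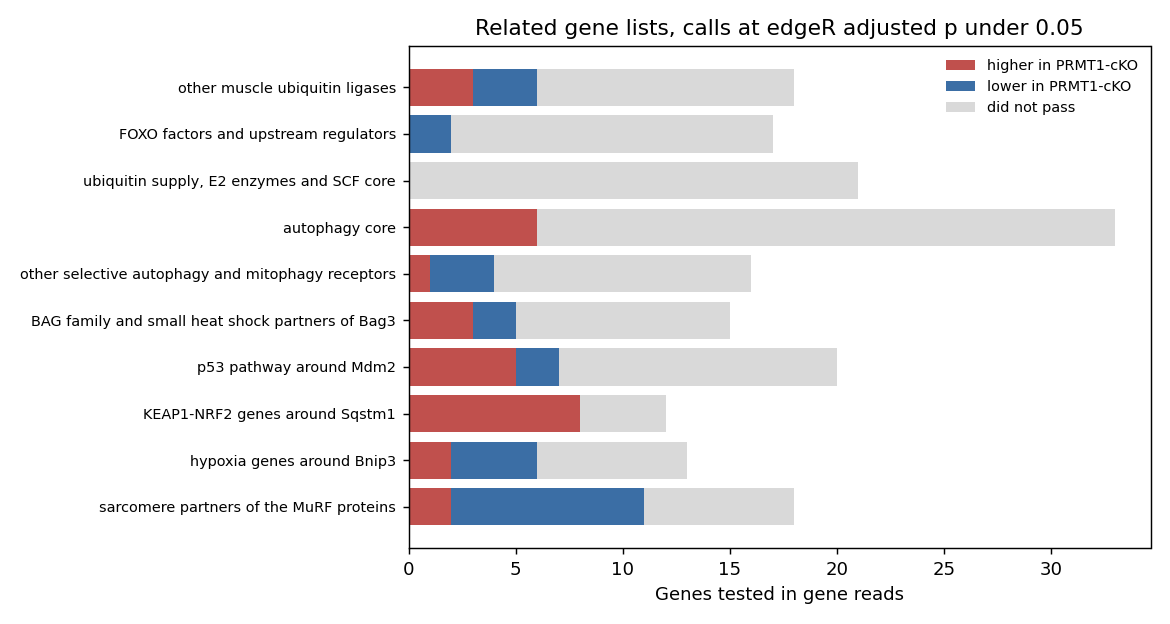
Genes of each related list tested in gene reads, split into those higher in PRMT1-cKO, lower in PRMT1-cKO and not past an edgeR adjusted p under 0.05. The KEAP1-NRF2 list has 8 higher and 0 lower of 12, the sarcomere list 2 higher and 9 lower of 18, and the ubiquitin supply list has no call.

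The list with the largest median was that of KEAP1 and NRF2 genes around Sqstm1, at 1.60. Of its 12 genes 8 were higher and none was lower in edgeR, at an unadjusted p under 0.05 these were 9 and 0, and DESeq2 called 7 and 0. Heme oxygenase, Hmox1, had 0.709 and 0.468 CPM in WT and 11.2 and 9.41 CPM in PRMT1-cKO (log2 4.09 ± 0.29, edgeR adjusted p = 8.00e-09). The sulfiredoxin gene Srxn1 rose by 2.91 ± 0.34 and the thioredoxin reductase gene Txnrd1 by 2.59 ± 0.24 on the log2 scale. In exon reads 6 of 7 were higher, with a median of 2.71, and none was lower in edgeR, in DESeq2 or at an unadjusted p under 0.05. Fibroblast and leukocyte markers also rose in these whole-heart libraries, and the part of such shifts in the rises of this list was not tested. Leaving out each library in turn left between 6 and 8 higher calls.

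Of 13 hypoxia genes around Bnip3, 2 were higher and 4 lower, with a median of -0.04. Slc2a1, the glucose transporter GLUT1, rose from 1.46 and 1.46 CPM to 8.05 and 8.41 CPM (log2 2.49 ± 0.24, edgeR adjusted p = 4.40e-07), and Ero1l, an oxidase of the endoplasmic reticulum, rose by 1.18. Vegfa, an angiogenic factor, fell by 1.28, with 0 exon reads in every library. Here 2 genes were lower when WT replicate 1 was left out and 1 when WT replicate 2 was. Of 20 p53 pathway genes around Mdm2, 5 were higher and 2 lower, with a median of 0.16. Plk2 rose by 2.49 ± 0.24 and the cell cycle inhibitor Cdkn1a by 1.29 ± 0.31, while cyclin G1, Ccng1, fell by 1.01 ± 0.22 on the log2 scale. Without WT replicate 1, the p53 list had 1 gene higher and 1 lower, and the Cdkn1a call was lost (edgeR adjusted p = 0.168). With PRMT1-cKO replicate 1 left out this list had 3 higher. Of 15 BAG proteins and small heat shock partners of Bag3, 3 were higher and 2 lower, with a median of 0.01. The actin-binding protein Synpo2, which works with BAG3 in chaperone-assisted autophagy, fell from 107 and 80.3 CPM to 20.1 and 22.2 CPM (log2 -2.15 ± 0.24, edgeR adjusted p = 1.74e-06), with at most 1 exon read in a library. Bag2 rose by 1.25 and the heart-enriched small heat shock protein Hspb7 by 0.81. Hspb6, another small heat shock gene, named after its values were seen, fell by 2.67 (edgeR adjusted p = 1.02e-04), with a mean of 1.37 CPM. Exon reads of Hspb6 fell as well, from 34 and 40 to 8 and 5. Exon reads of Bag2 were few, 7 and 7 in the WT hearts against 7 and 10. Without WT replicate 1 or WT replicate 2, 1 gene of the list was higher, and without PRMT1-cKO replicate 1, 2 were. The Hspb7 call held in neither of the fits without a WT heart, nor in that without PRMT1-cKO replicate 1.

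In exon reads several of these lists gave other counts. There 36.2% of all genes tested passed, 17.6% as higher and 18.7% as lower, so more calls are found on this scale in any list, and no list was tested as a set. Of 20 autophagy core genes 4 were higher and 3 lower, and without WT replicate 1 the lower count was 1. The 3 lower genes, named after their values were seen, were the initiation kinases Ulk1 (log2 -0.59, edgeR adjusted p = 0.0389) and Ulk2 (-1.22, 0.00860) and the conjugation enzyme Atg10 (-1.84, 0.00109). Of 9 FOXO factors and regulators 1 was higher and none lower in edgeR, with 1 lower at an unadjusted p under 0.05 and 0 lower in DESeq2. The higher gene, also named after its value was seen, was Igf1r, the IGF1 receptor (0.86 ± 0.20, edgeR adjusted p = 0.00318). Leaving out PRMT1-cKO replicate 2 gave 2 higher and 2 lower, and leaving out WT replicate 1 or PRMT1-cKO replicate 1 gave 1 lower. Of 11 ubiquitin, E2 and SCF core genes 1 was higher, Cand1, an exchange factor of cullin ligases (0.77 ± 0.20, edgeR adjusted p = 0.00606), and 1 was lower, the deubiquitinase Usp28 (-0.70 ± 0.14, edgeR adjusted p = 9.88e-04), both chosen after their values were seen. The higher count was 0 without WT replicate 2 and 3 without PRMT1-cKO replicate 1.

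Of 17 sarcomere genes 3 were higher and 7 lower in exon reads. Of 14 other muscle ligases 2 were higher and 3 lower, and the higher count was 1 when WT replicate 2 or PRMT1-cKO replicate 2 was left out. Of 8 other autophagy receptors and partners 2 were higher and 1 lower, with 1 higher when WT replicate 2 and 2 lower when PRMT1-cKO replicate 2 was left out. Of 8 BAG and heat shock genes 3 were higher and 2 lower, with 1 higher when WT replicate 1 and 1 lower when WT replicate 2 was left out. Of 9 p53 pathway genes 4 were higher and 1 lower, with 2 higher when WT replicate 1 was left out. Of 8 hypoxia genes 2 were higher and 3 lower, with 1 higher when PRMT1-cKO replicate 2 was left out.

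The genes closest to Trim63 over the 4 libraries, by Euclidean distance of centred log2 CPM among 2082 genes with a mean of at least 20 CPM, were Trdn (0.0524), Nceh1 (0.115) and Tef (0.119). Trdn, which encodes triadin of the calcium release complex, had 876 and 829 CPM in WT and 296 and 362 CPM in PRMT1-cKO. Those most like Fbxo32, among 2081 genes, were Plcb1 (0.0556), Ubr2 (0.0740) and Negr1 (0.0776). Ubr2, itself a ubiquitin ligase, had 38.7 and 37.3 CPM in WT and 21.3 and 26.9 CPM in PRMT1-cKO. These are descriptions over 4 libraries of 2 genotypes.

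In the authors' deposited table, 5 of the 10 genes had a corrected p-value under 0.05, as did 2725 of the 43346 genes of the whole table. In the authors' deposited table these 5 were Trim63 (signed fold change -2.69, corrected p = 2.25e-08), Fbxo40 (5.13, 5.61e-25), Sqstm1 (2.77, 1.82e-09), Bnip3 (-1.97, 0.00181) and Bag3 (-1.68, 0.0105). By the authors' deposited table Fbxo32 (-1.55, corrected p = 0.0518) and Trim54 (-1.59, 0.142) missed that threshold, and they are among the genes whose calls here depended on single libraries.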

How the data were processed

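Total RNA was sequenced from 2 WT and 2 PRMT1-cKO hearts. RiboMinus depletion and SOLiD total RNA-Seq libraries were used, per the labels' protocols. Per the submitters' processing notes the build was GRCm38. The aligner, counter and use of strand are not given in the sources used. The authors deposited counts of gene, exon and intron reads, RPKM, and, per the file headers, a p-value and signed fold change score of their own EDGE test. Of 2605955 exon reads, 29 did not cross a junction, and the 2588 genes with 1 exon had 0 exon reads. A count of 0 exon reads allows up to 3 reads, or 3.92 to 5.51 CPM, counting error only.

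Deposited counts were tested in R 4.3.3 with edgeR 4.0.16 (TMM, filterByExpr at 10 reads and 15 in total, two-sided quasi-likelihood test on genotype alone, Benjamini-Hochberg adjustment over all genes tested). Scripts were tested on simulated data. Alternatives were RLE scaling, DESeq2 1.42.0, other read filters, a replicate block and leaving out each library. A leave-one-out fit has 1 library in a group, which is then assumed to vary like the other group. From each list the text names up to 3 called genes with a mean of at least 2 CPM, the largest changes first. The 10 genes, the lists and the tests were chosen with earlier results of these data known. Overlaps come from GENCODE M21 and promoters from RefSeq.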

Additional observations from a re-analysis of the deposited data

How the results depend on the processing

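Leaving out each library in turn gave 1869 to 3274 genes called in gene reads (3154 with all 4 libraries), 4 to 7 of the 10 genes in gene reads (7) and 4 to 8 in intron reads (8), 30 to 61 list genes (55), 1681 to 2948 genes in intron reads (2886), and 28 to 298 in exon against intron reads (163). DESeq2 called 1096 genes in exon reads (1723 in edgeR) and 1783 in intron reads. Deviations of same-numbered hearts correlated at -0.12 in gene reads, -0.0092 in exon reads and -0.093 in intron reads. Such a correlation cannot show whether the hearts were paired, and the labels give nothing on litter. With the replicate block, 5 of the 10 genes passed in gene reads, Trim54 (edgeR adjusted p = 0.0527) and Fbxo32 (0.151) being lost, 2806 genes passed in gene reads, 1583 in exon reads and 2561 in intron reads, and 68 in exon against intron reads. The block also ended the intron calls of Trim54 (edgeR adjusted p = 0.0536) and Trim55 (0.152) and, among the list genes named, the gene-read calls of Akt2 (0.0851), Hspb7 (0.0586), Nr3c1 (0.0687) and Rtn3 (0.136). A crossed pairing, chosen after seeing the data, gave 4329 genes and 8 of the 10. Signs turned only in values that did not pass, here given as the range over the 4 fits that each leave out 1 library: Mdm2 gene reads -0.041 to 0.41, Nbr1 exon reads -0.25 to 1.07, Bag3 exon reads -0.14 to 0.047, and exon minus intron of Trim54 -0.74 to 0.52, Fbxo32 -0.0042 to 0.73 and Nbr1 -0.64 to 1.20. Of the other values of single genes under an alternative, 523 kept direction and side, 46 lost the call and 4 gained it; the cause was not tested. With 2 hearts a group and at most 16 exon reads a library, small exon changes of Trim54, Nbr1 and Bnip3 were not detectable, and Trim54 and Nbr1 gave no exon value at a minimum count of 30.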
